A study of Mus musculus with 12 samples.

Results

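The 10 unfolded protein response (UPR) genes here were taken by name and not by a measured value, with earlier results of these data known. The 10 are Hspa5, Ddit3, Atf4, Xbp1, Atf3, Trib3, Chac1, Herpud1, Sdf2l1 and Pdia4. They are 10 of the 24384 genes counted in polyadenylated RNA from mouse hippocampus, in 12 libraries that fall into 3 groups of 4. The groups are rTg4510 mice that received 3TC, the nucleoside analogue lamivudine that blocks reverse transcriptase, rTg4510 mice for which the labels name no treatment, and Littermate Controls, whose genotype and treatment are not given beyond that name. As background, rTg4510 mice carry a mutant human tau transgene that a second transgene, driven by the Camk2a promoter, turns on in forebrain neurons, and they serve as a model of tauopathy. Both rTg4510 groups carry these transgenes, so no group labelled with 3TC lacks them. The labels put 2 females and 2 males in each group, and libraries are named here by group and replicate code. The labels state neither the age of the mice nor how much 3TC they received or for how long. The title of the series places 3TC and the inflammatory transcriptome of tauopathy at the centre of the study, and the UPR genes bear on a different stress pathway in the same tissue.

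The UPR is the set of signals by which cells answer an excess of unfolded protein in the endoplasmic reticulum (ER). The ER membrane sensors IRE1, PERK and ATF6 start it: IRE1 splices the mRNA of Xbp1 into the form that encodes an active transcription factor, PERK phosphorylates eIF2α and so favours translation of ATF4, and ATF6 is cleaved into a transcription factor. ATF6 and XBP1 raise ER chaperones and degradation factors, while ATF4 raises stress and amino acid genes, among them the gene of the transcription factor CHOP (Ddit3). PERK signalling has been studied in tauopathy because eIF2α phosphorylation lowers protein synthesis in neurons.

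The promoter of Hspa5 is shown because Hspa5 leads the chaperone genes on which the results turn. The sequence runs from 250 bases before to 50 bases after the annotated start (chr2:34771840-34772139, plus strand), from RefSeq on GRCm38.p6. No sequence element was searched for in it.
Hspa5: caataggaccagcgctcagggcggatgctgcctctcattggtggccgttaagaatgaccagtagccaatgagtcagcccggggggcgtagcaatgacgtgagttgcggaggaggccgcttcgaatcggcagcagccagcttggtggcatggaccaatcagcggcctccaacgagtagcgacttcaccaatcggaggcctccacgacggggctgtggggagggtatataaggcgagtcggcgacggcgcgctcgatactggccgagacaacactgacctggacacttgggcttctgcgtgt

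Library totals ran between 27351630 and 35357415 counts in rTg4510+3TC, between 29732904 and 36112922 in rTg4510 and between 27286787 and 58173678 in littermates, so 3 counts correspond to 0.0519 to 0.11 CPM, the count scaled to the TMM-adjusted library total. The 10 CA1 and CA3 pyramidal neuron markers were counted in all 12 libraries, and of the 8 dentate granule neuron markers at most 1 was at 0 in a library. Prnp, carried by the tau transgene vector of this line as background, was among the genes called in each rTg4510 group against littermates. Some libraries stood apart in genes of tissue that adjoins the hippocampus. The choroid plexus gene Ttr had 3907 CPM in rTg4510 M1 and 3404 and 1871 CPM in littermates F1 and F3, whereas the remaining 9 libraries had 16.33 to 128.8 CPM. Striatal neuron genes scored 1.34 in rTg4510 F3 (mean log2 deviation of the marker genes from their mean over the libraries) and dentate granule neuron genes -2.16. Thalamic neuron genes scored 2.18 in rTg4510+3TC F2. Sex-linked counts were crossed relative to the labels in littermates F3 and M3.

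All 10 UPR genes passed the filter on low counts. Set per kilobase of exon, their mean levels over the 12 libraries covered a wide range. Hspa5, the ER chaperone BiP, was the highest at 54.4 ± 12.7 CPM per kb (SD over 12 libraries), and Atf4 followed at 39.8 ± 3.98 CPM per kb. Herpud1 (20.7 ± 2.67 CPM per kb), Pdia4 (19.8 ± 3.86) and Xbp1 (17.9 ± 3.04) came next, with ranges that overlapped one another. Ddit3 (10.2 ± 2.01 CPM per kb) and Sdf2l1 (8.44 ± 2.37) also overlapped, and Chac1 stood at 3.14 ± 0.961 CPM per kb. Atf3 and Trib3 were the lowest, at 0.365 ± 0.221 and 0.198 ± 0.149 CPM per kb, with 314 and 186 counts in all 12 libraries together. With the longest transcript in place of all exons, Xbp1 stood at 27.3 CPM per kb, above Herpud1 at 24.7, and Ddit3 at 18.0, so the order among these genes rests on the transcript model.

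The chaperone group is led by Hspa5, the Hsp70 of the ER that also holds the UPR sensors inactive (chromosome 2, 34771970 to 34777547, mm10, plus strand). Hspa5 had 258.8, 213.1, 321.8 and 205 CPM in rTg4510+3TC F2, F3, M2 and M3, then 172.5, 170.7, 346 and 216 CPM in rTg4510 F2, F3, M1 and M3, against 208.3, 226, 218.4 and 205.5 CPM in littermates F1, F3, M2 and M3. The libraries rTg4510 M1 and rTg4510+3TC M2 stood highest, the lowest 2 were also rTg4510, and the 4 littermates lay in a narrow band inside the range of both rTg4510 groups. The means were 249.7 ± 53.6 CPM in rTg4510+3TC, 226.3 ± 82.5 CPM in rTg4510 mice, and 214.6 ± 9.45 CPM in the littermate group (SD, n = 4 each). In edgeR's quasi-likelihood test the log2 difference was 0.22 ± 0.205 (SE, adjusted p = 0.804) between rTg4510+3TC and littermates, 0.14 ± 0.205 (adjusted p = 1) between rTg4510+3TC and rTg4510, and 0.08 ± 0.205 (adjusted p = 0.998) between rTg4510 and littermates. The last of these was -0.20 without rTg4510 M1, and the second was -0.0061 without rTg4510+3TC M2. Over the alternative fits the second ran up to 0.417 and the last up to 0.199.

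Pdia4, a protein disulfide isomerase of the ER that helps form and rearrange disulfide bonds, showed the same pair of high libraries. It had 41.21, 47.91, 64.84 and 42.5 CPM in rTg4510+3TC F2, F3, M2 and M3, then 41.71, 37.33, 63.22 and 38.76 CPM in rTg4510 F2, F3, M1 and M3, against 52.33, 52.97, 46.94 and 39.37 CPM in littermates F1, F3, M2 and M3. The groups overlapped, and rTg4510 M1 and rTg4510+3TC M2 lay above every littermate. Sdf2l1, which works with BiP and its DnaJ partner in the ER lumen, had 9.789, 8.004, 12.05 and 6.925 CPM in rTg4510+3TC F2, F3, M2 and M3, then 6.376, 8.834, 14.43 and 7.833 CPM in rTg4510 F2, F3, M1 and M3, against 6.761, 12.37, 11.37 and 7.508 CPM in littermates F1, F3, M2 and M3. The groups overlapped, with rTg4510 M1 the highest library and rTg4510 F2 the lowest. The log2 differences of Pdia4 ran between -0.08 and 0.12 over the 3 comparisons and those of Sdf2l1 between -0.04 and -0.02.

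Herpud1 encodes an ER membrane protein that supports the degradation of misfolded ER proteins. It had 55.55, 39.62, 45.68 and 45.47 CPM in rTg4510+3TC F2, F3, M2 and M3, then 40.87, 59.13, 44.13 and 47.43 CPM in rTg4510 F2, F3, M1 and M3, against 50.22, 47.65, 57.38 and 45.68 CPM in littermates F1, F3, M2 and M3. Its high libraries were rTg4510 F3, littermate M2 and rTg4510+3TC F2, not the libraries that were high in Hspa5. The annotated antisense gene Gm15890 overlaps 535 bases of the gene, and without a stated strand setting reads of the 2 cannot be told apart.

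Among the transcription factors, Xbp1 is the target of IRE1, and counts per gene do not separate its spliced from its unspliced mRNA. Xbp1 had 54.6, 50.94, 67.9 and 47.85 CPM in rTg4510+3TC F2, F3, M2 and M3, then 49.45, 62.21, 71.33 and 59.13 CPM in rTg4510 F2, F3, M1 and M3, against 48.57, 55.11, 78.32 and 52.61 CPM in littermates F1, F3, M2 and M3. The highest library was littermate M2, and the 3 groups overlapped. Atf4, the factor translated when eIF2α is phosphorylated, varied least of the 10 genes, by 1.32-fold between its highest and lowest library. It had 99.53, 84.5, 103.7 and 99.12 CPM in rTg4510+3TC F2, F3, M2 and M3, then 89.53, 106.7, 87.35 and 96.67 CPM in rTg4510 F2, F3, M1 and M3, against 80.7, 82.61, 106.6 and 88.47 CPM in littermates F1, F3, M2 and M3. Each group held 1 to 3 libraries near 100 CPM, and the level of the mRNA does not report its translation.

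Ddit3 encodes CHOP, a factor linked to cell death under lasting ER stress. Ddit3 had 18.92, 13.12, 18.23 and 17.7 CPM in rTg4510+3TC F2, F3, M2 and M3, then 17.16, 23.2, 15.28 and 17.6 CPM in rTg4510 F2, F3, M1 and M3, against 14.53, 14.08, 24.32 and 15.45 CPM in littermates F1, F3, M2 and M3. Littermate M2 was the highest of all 12 libraries and rTg4510 F3 the next. The log2 difference was -0.0082 ± 0.192 (SE) between rTg4510+3TC and littermates and 0.10 ± 0.192 between rTg4510 and littermates, which was -0.042 without rTg4510 F3. Ddit3 overlaps 68 bases of Mars and 15 bases of Gm4189, both on the opposite strand.

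Chac1, which breaks down glutathione and is a target of ATF4, was the gene with the largest difference between rTg4510 and littermates among the 8 genes above 1 CPM on average. It had 7.052, 5.431, 5.161 and 4.544 CPM in rTg4510+3TC F2, F3, M2 and M3, then 4.375, 9.147, 4.632 and 4.119 CPM in rTg4510 F2, F3, M1 and M3, against 3.528, 4.631, 5.466 and 3.652 CPM in littermates F1, F3, M2 and M3. The groups overlapped, and 1 library, rTg4510 F3, stood far above its group. The log2 difference between rTg4510 and littermates was 0.37 ± 0.271 (SE, adjusted p = 0.984 in edgeR), and without rTg4510 F3 it was 0.013. Between rTg4510+3TC and littermates it was 0.36 ± 0.271 (adjusted p = 0.736), with a 95% interval of -0.222 to 0.949.

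Atf3, an early stress transcription factor, and Trib3, a pseudokinase that acts back on ATF4 and CHOP, had few counts and spread widely within groups, with SDs of 1.36 and 1.47 on the log2 scale. Atf3 had 15, 57, 32 and 35 counts in rTg4510+3TC F2, F3, M2 and M3, then 18, 0, 39 and 23 counts in rTg4510 F2, F3, M1 and M3, against 29, 32, 27 and 7 counts in littermates F1, F3, M2 and M3. Trib3 had 29, 3, 28 and 4 counts in rTg4510+3TC F2, F3, M2 and M3, then 0, 13, 19 and 13 counts in rTg4510 F2, F3, M1 and M3, against 38, 1, 26 and 12 counts in littermates F1, F3, M2 and M3. A count of 0 allows a level of up to 0.0855 CPM for Atf3 in rTg4510 F3 and up to 0.102 CPM for Trib3 in rTg4510 F2 (3 counts, counting error only). The 95% interval of the fold between rTg4510+3TC and rTg4510 ran between 0.465 and 6.6 for Atf3 and between 0.303 and 7.01 for Trib3.

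**Figure D1:**
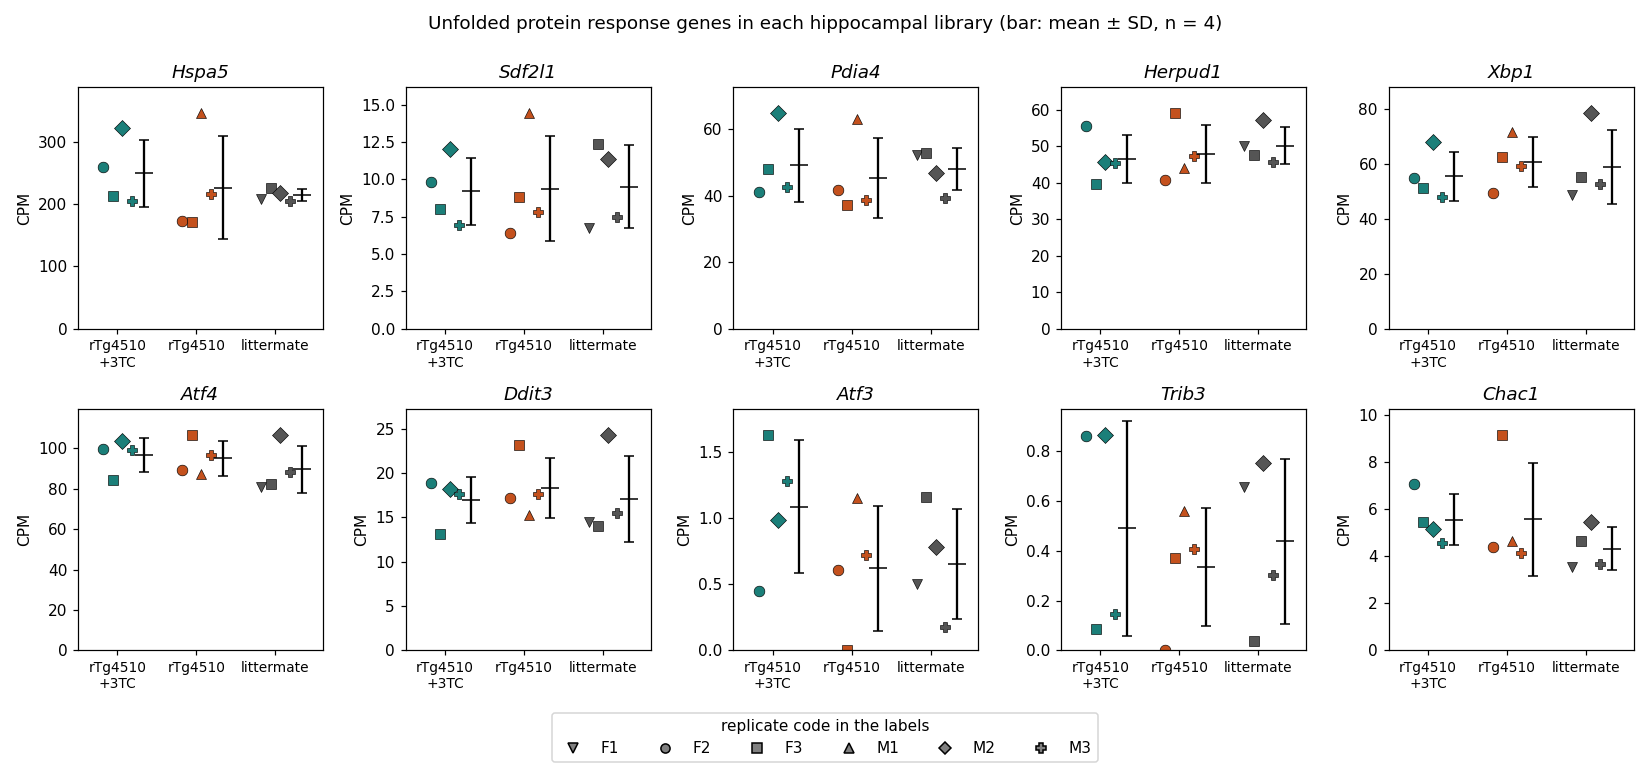
Level of each of the 10 UPR genes (CPM, 1 panel a gene) in rTg4510+3TC, rTg4510 and littermate libraries, with points for libraries and bars for the mean ± SD of 4. The groups overlap in every panel, and for Hspa5 the spread is 82.5 CPM in rTg4510 against 9.45 CPM in littermates.

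The first comparison sets rTg4510 against littermates and asks how the hippocampus of the line differs. Of the 10 UPR genes, 0 passed an adjusted p of 0.05 in edgeR, against 0.0301% of all 16618 genes tested, and 0 had an unadjusted p under 0.05, against 5.24%. DESeq2 and limma-voom also called 0 of the 10. None of the 10 had groups of libraries that did not overlap, against 3.89% of all genes. By sign, 5 genes had positive and 5 negative log2 differences, with a median of 0.0149 against -0.0014 over all genes. Intervals were narrowest for Atf4, whose fold lay between 0.909 and 1.24 at 95%, and for Herpud1, between 0.786 and 1.16. Among the genes above 1 CPM, the widest intervals on the log2 scale were those of Sdf2l1 and Chac1. Their folds lay between 0.655 and 1.49 for Sdf2l1 and between 0.861 and 1.94 for Chac1. The labels do not say that the libraries of a group came from separate animals, so each p-value reflects how far these libraries spread, which may be technical. In bulk tissue, fewer cells of a type and less RNA per cell cannot be told apart.

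The second comparison asks what 3TC does in rTg4510 mice, and shares the rTg4510 libraries with the first. Again 0 of the 10 UPR genes were called, as were 0% of all genes, and 0 had an unadjusted p under 0.05 in edgeR, against 635 genes or 3.82% of all. DESeq2 and limma-voom called 0 of the 10 as well. None of the 10 had groups that did not overlap, against 2.46% of all genes. The signs were 5 positive and 5 negative, with a median of 0.00939 against -0.00054 over all genes. The 95% interval of the fold lay between 0.872 and 1.19 for Atf4, between 0.719 and 1.16 for Xbp1, between 0.696 and 1.24 for Ddit3 and between 0.812 and 1.5 for Hspa5.

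The comparison of rTg4510+3TC with littermates shares libraries with both others. Here too 0 of the 10 were called in edgeR, against 0.0481% of all genes, and 0 had an unadjusted p under 0.05, against 8.59%, with 0 called by DESeq2 and by limma-voom. None of the 10 had groups that did not overlap, against 5.86% of all genes. The signs were 6 positive and 4 negative, with a median of 0.0733 against -0.004 over all genes. The interval of the fold lay between 0.925 and 1.26 for Atf4 and between 0.856 and 1.58 for Hspa5. An adjusted p above the threshold does not show that a gene was equal in the groups.

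**Figure D2:**
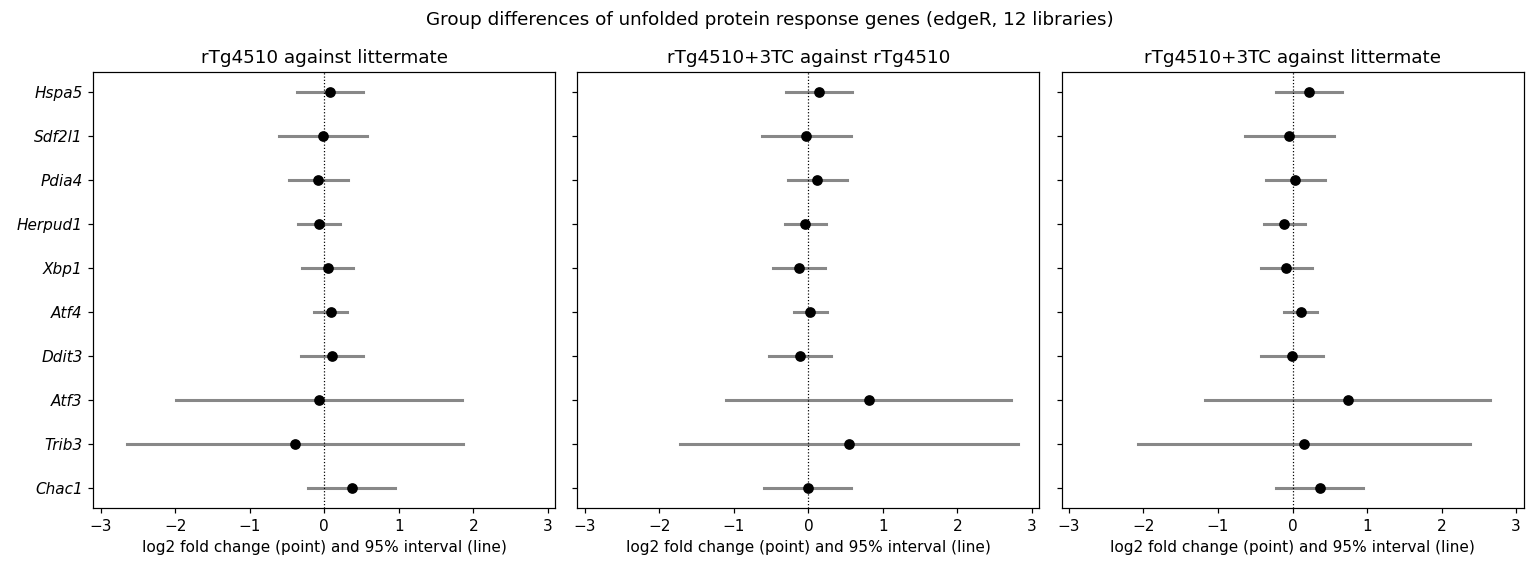
Log2 fold change of each UPR gene with its 95% interval from edgeR, in the 3 comparisons of groups. Every interval covers 0, and those of Atf3 and Trib3 are the widest, at -1.11 to 2.72 and -1.72 to 2.81 between rTg4510+3TC and rTg4510.

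For the 8 UPR genes above 1 CPM, the highest library was between 1.32-fold (Atf4) and 2.59-fold (Chac1) above the lowest. The SD between libraries of a group, on the log2 scale, ran between 0.149 (Atf4) and 0.429 (Sdf2l1). The high libraries fell into sets that differed by gene and overlapped in part. Hspa5, Pdia4 and Sdf2l1 were high in rTg4510 M1 and in rTg4510+3TC M2, and Sdf2l1 (12.05 CPM in rTg4510+3TC M2) also in littermate F3 (12.37 CPM). Ddit3, Atf4 and Herpud1 had rTg4510 F3 and littermate M2 as their highest 2 libraries. Xbp1 was high in littermate M2, in rTg4510 M1 and in rTg4510+3TC M2.

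**Figure D3:**
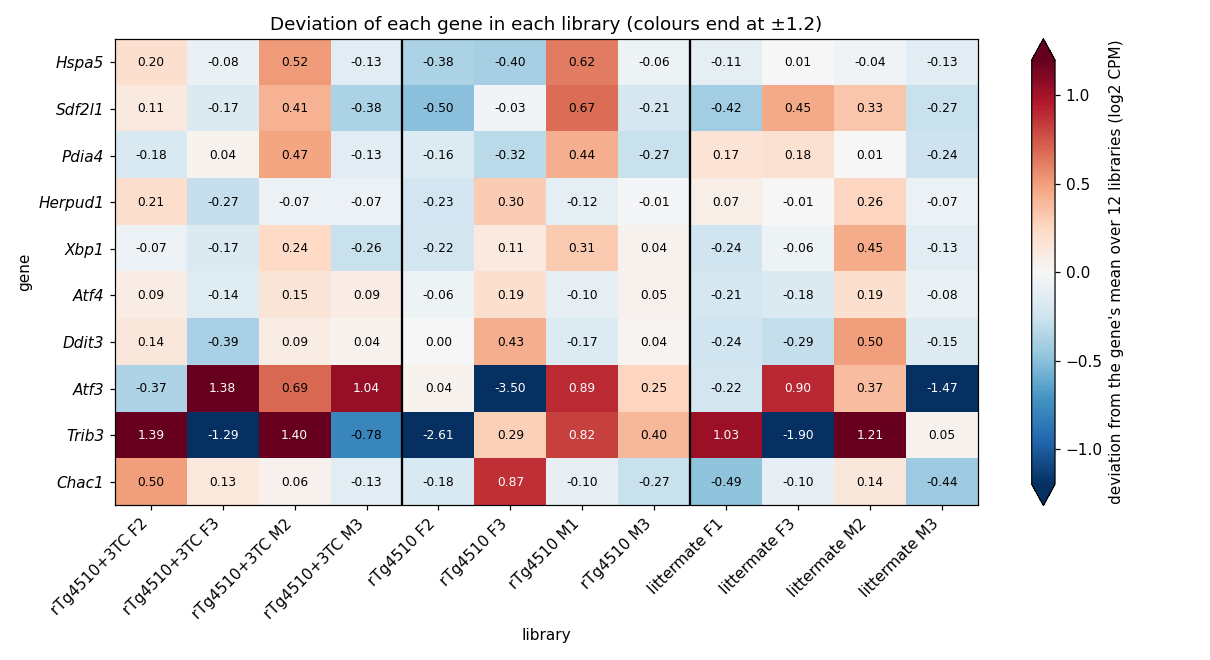
Log2 deviation of each UPR gene from its own mean over the 12 libraries, with genes in rows and libraries in columns by group. Hspa5, Sdf2l1 and Pdia4 stand out in rTg4510 M1, and Ddit3 and Chac1 in rTg4510 F3. Atf3, with 0 counts, has the largest deviation in rTg4510 F3, at -3.502.

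Pairs of UPR genes were compared across the 12 libraries by Pearson's r of log2 CPM, with a permutation p (100000 resamples, two-sided) adjusted over the 45 pairs. Of these, 4 pairs passed an adjusted p of 0.05 and 11 had an unadjusted p under 0.05, and the 4 were positive. Values of a pair share the library, its depth and its tissue content. Ddit3 and Atf4 were the closest pair, with r = 0.917 (permutation p = 1e-05, the smallest that resampling can give, adjusted p = 0.00045) and Spearman's rho = 0.958 (adjusted permutation p = 0.00225). Without littermate M2 and rTg4510 F3, the libraries farthest from the median of Ddit3, r was 0.899 (adjusted permutation p = 0.0391), and after subtracting the group means it was 0.969 (adjusted permutation p = 0.0256). This pair alone passed in each of these forms.

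The other 3 pairs join chaperone genes or Xbp1. Hspa5 and Pdia4 had r = 0.783 (adjusted permutation p = 0.0384) and rho = 0.636 (adjusted permutation p = 0.246), and without rTg4510 M1 and rTg4510+3TC M2 r was 0.338 (adjusted permutation p = 0.643), so the relation rests on those 2 libraries. Hspa5 and Sdf2l1 had r = 0.759 (adjusted permutation p = 0.0384) and rho = 0.79 (adjusted permutation p = 0.0529), and r was 0.5 without the same 2 libraries (adjusted permutation p = 0.639). Xbp1 and Sdf2l1 had r = 0.783 (adjusted permutation p = 0.0384) and rho = 0.804 (adjusted permutation p = 0.0529), and r was 0.705 without littermate M2 and rTg4510 M1 (adjusted permutation p = 0.542). After subtracting group means, r was 0.801 (adjusted permutation p = 0.175), 0.802 (adjusted permutation p = 0.0433) and 0.81 (adjusted permutation p = 0.0433) for these pairs in the order given. Between the chaperone and the ATF4 sides, Hspa5 had r = -0.17 with Ddit3 (adjusted permutation p = 0.68) and r = 0.0094 with Atf4 (adjusted permutation p = 0.976).

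**Figure D4:**
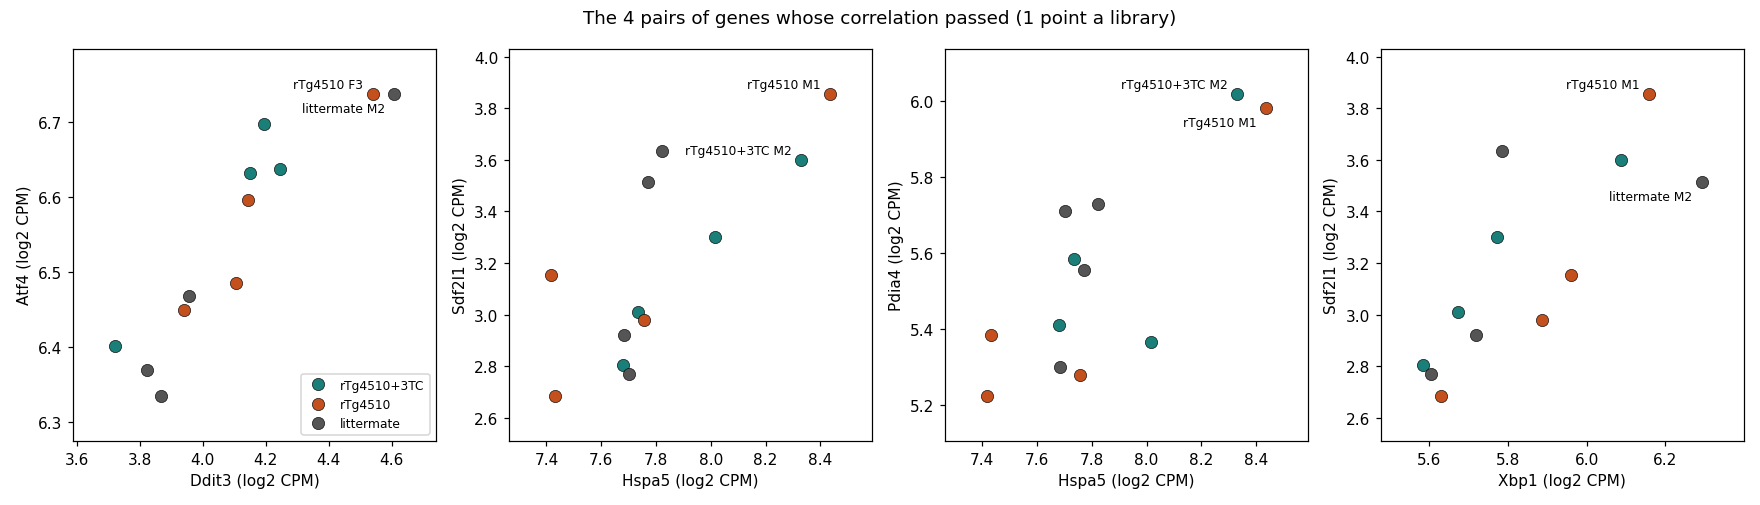
Log2 CPM of the 4 pairs of UPR genes whose Pearson correlation passed an adjusted permutation p of 0.05, with 1 point a library coloured by group. Ddit3 and Atf4 (r = 0.917) follow a line over all libraries, while in the panel of Hspa5 and Pdia4 (r = 0.783) rTg4510 M1 and rTg4510+3TC M2 lie apart from the other 10.

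Markers of other tissue moved with some of these libraries. The choroid plexus score was 3.41 in rTg4510 M1 but -0.674 in rTg4510+3TC M2, which was nearly as high in Hspa5. It was 3.14 in littermate F1 and 2.4 in littermate F3, where Hspa5 stood at 208.3 and 226 CPM. Summed over its 10 markers, none at 0 in any library, the choroid plexus list ran between 310.6 and 412.6 CPM in rTg4510+3TC, between 246.2 and 6784 CPM in rTg4510 and between 369.6 and 5646 CPM in littermates. Ddit3 and Atf4 were highest in rTg4510 F3 and littermate M2. There the CA1 and CA3 pyramidal neuron score was -1.13 and -0.722, the lowest 2 of 12, and the immediate early gene score was 0.596 and 1.26, the highest 2. The immediate early gene score was also 0.556 in littermate F3, where Ddit3 (14.08 CPM) and Atf4 (82.61 CPM) were among their lowest. The oligodendrocyte and myelin score was -1.1 in rTg4510 F3, the lowest, but 0.81 in littermate M2, the highest. Summed over 10 markers, none at 0, the CA1 and CA3 list ran between 567.9 and 975.4 CPM in rTg4510+3TC, between 649 and 993.8 CPM in rTg4510 and between 632.9 and 1002 CPM in littermates. The part of tissue content in the levels of the UPR genes was not tested.

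Genes of the pathway outside the 10 were read in 5 lists, with immediate early genes of neurons as a sixth, and 0 genes of any list were called by edgeR in any comparison. Counts of list genes with an unadjusted p under 0.05 stand against 5.24% of all genes between rTg4510 and littermates, 3.82% between rTg4510+3TC and rTg4510 and 8.59% between rTg4510+3TC and littermates. Among 12 UPR sensors and transducers, 1 gene had an unadjusted p under 0.05 in rTg4510 against littermates and 1 in rTg4510+3TC against littermates, with median log2 differences of 0.0041 and 0.0155. In both cases the gene was Eif2ak3, which encodes PERK. Eif2ak3 had 44.84, 36.33, 35.79 and 32.32 CPM in rTg4510+3TC F2, F3, M2 and M3, then 34.83, 39.3, 31.57 and 34.42 CPM in rTg4510 F2, F3, M1 and M3, against 28.53, 28.58, 30.89 and 24.96 CPM in littermates F1, F3, M2 and M3. Each rTg4510 library of either group lay above every littermate, by a log2 difference of 0.40 ± 0.112 (SE, adjusted p = 0.341 in edgeR) for rTg4510+3TC and 0.31 ± 0.112 (adjusted p = 0.945) for rTg4510, and neither passed the test. Between rTg4510+3TC and rTg4510 the 2 genes of this list with the smallest p had opposite signs: Traf2, an adaptor of IRE1, at -0.41 ± 0.218 (adjusted p = 1), and Ern1, which encodes IRE1, at 0.21 ± 0.119 (adjusted p = 1).

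Of 22 genes of ER-associated degradation, 3 had an unadjusted p under 0.05 in each comparison with littermates, with positive sign, and 0 between rTg4510+3TC and rTg4510. Sel1l, the partner of the ubiquitin ligase HRD1, led both. Sel1l had 224.5, 239.8, 235.4 and 219.1 CPM in rTg4510+3TC F2, F3, M2 and M3, then 236.5, 228.2, 236.2 and 211.9 CPM in rTg4510 F2, F3, M1 and M3, against 202.4, 193.3, 186.4 and 192.2 CPM in littermates F1, F3, M2 and M3. No library of either rTg4510 group fell into the littermate range, with log2 differences of 0.25 ± 0.0649 (SE, adjusted p = 0.336 in edgeR) for rTg4510+3TC and 0.24 ± 0.0649 (adjusted p = 0.945) for rTg4510, which did not pass over all genes. Summed over the list, ER-associated degradation genes ran between 1861 and 1919 CPM in rTg4510+3TC, between 1878 and 1909 CPM in rTg4510 and between 1725 and 1831 CPM in littermates. As a share of all genes, 3.89% did not overlap between rTg4510 and littermates and 5.86% between rTg4510+3TC and littermates, and 5.24% and 8.59% had an unadjusted p under 0.05.

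Markers of microglia and oligodendrocytes leaned in sign between the same groups as Eif2ak3 and Sel1l, and so did other marker lists. Against littermates, 10 of 10 endothelial and pericyte markers were negative for rTg4510 and 7 for rTg4510+3TC. In the same order, 9 and 9 of 10 choroid plexus markers and 6 and 7 of 8 dentate granule neuron markers were negative. Astrocyte markers had 3 and 7 of 8 positive signs, and CA1 and CA3 markers 6 and 5 of 10 negative signs. Of 10 microglia markers, 8 had positive signs in rTg4510+3TC against littermates (median log2 difference 0.411, 8 with an unadjusted p under 0.05) and 10 in rTg4510 against littermates (median 0.408, 5 with an unadjusted p under 0.05). Summed over the list, microglia markers ran between 430.9 and 632.6 CPM in rTg4510+3TC, between 515.2 and 564.2 CPM in rTg4510 and between 379.5 and 544.9 CPM in littermates. Of 10 oligodendrocyte and myelin markers, 10 had negative signs in each rTg4510 group against littermates, with a median of -0.32 and 2 with an unadjusted p under 0.05 for rTg4510+3TC, and a median of -0.60 and 9 for rTg4510. Summed, they ran between 5584 and 7304 CPM in rTg4510+3TC, between 2832 and 6598 CPM in rTg4510 and between 6122 and 10860 CPM in littermates. No marker of either list was at 0 in a library, 0 were called by edgeR, and the part of these cell types in the Eif2ak3 and Sel1l values was not tested.

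Of 26 ER chaperones and folding enzymes, 3 had an unadjusted p under 0.05 between rTg4510+3TC and littermates, with positive sign, against 8.59% of all genes, and 0 in the other 2 comparisons. The median log2 difference of the list was 0.0575 between rTg4510+3TC and littermates, 0.0448 between rTg4510+3TC and rTg4510 and 0.0464 between rTg4510 and littermates, with 19, 17 and 20 positive signs in that order. Canx, a lectin chaperone of the ER membrane, differed by 0.25 ± 0.0821 on the log2 scale (SE, adjusted p = 0.428) between rTg4510+3TC and littermates. Hsp90b1, the Hsp90 of the ER, differed by 0.33 ± 0.119 (adjusted p = 0.478), with rTg4510+3TC M2 at 496.2 CPM and rTg4510 M1 at 486.4 CPM as its highest libraries. Summed over the list, chaperones ran between 2605 and 3173 CPM in rTg4510+3TC, between 2453 and 3232 CPM in rTg4510 and between 2459 and 2560 CPM in littermates.

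Of 13 integrated stress response genes, which include the eIF2α kinases and the subunits of eIF2 and its exchange factor eIF2B, 1 had an unadjusted p under 0.05 in each comparison. These were Eif2b4, lower in rTg4510 than in littermates by a log2 difference of -0.25 ± 0.0858 (SE, adjusted p = 0.945), Eif2b1, at -0.25 ± 0.113 (adjusted p = 1) between rTg4510+3TC and rTg4510, and Eif2s2, at 0.19 ± 0.0847 (adjusted p = 0.569) between rTg4510+3TC and littermates. Of 39 ATF4 and CHOP target genes, 37 were tested, and 7 had an unadjusted p under 0.05 between rTg4510+3TC and littermates, 4 positive and 3 negative, against 1 between rTg4510 and littermates and 0 between rTg4510+3TC and rTg4510. Their medians were -0.0035, 0.0362 and 0.0295 in the same order. Nars, an aminoacyl-tRNA synthetase, differed by 0.23 ± 0.0742 (adjusted p = 0.415) and Ddit4, an inhibitor of mTORC1 signalling, by -0.44 ± 0.16 (adjusted p = 0.477) between rTg4510+3TC and littermates. Of the 12 immediate early genes, which respond to neuronal activity, 11 had negative signs against littermates in each rTg4510 group, with medians of -0.50 for rTg4510+3TC and -0.45 for rTg4510. Littermates M2 and F3 scored 1.26 and 0.556 on this list, while littermates F1 and M3, at -0.373 and -0.11, lay inside the ranges of rTg4510+3TC (-1.21 to 0.32) and rTg4510 (-0.505 to 0.596).

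**Figure D5:**
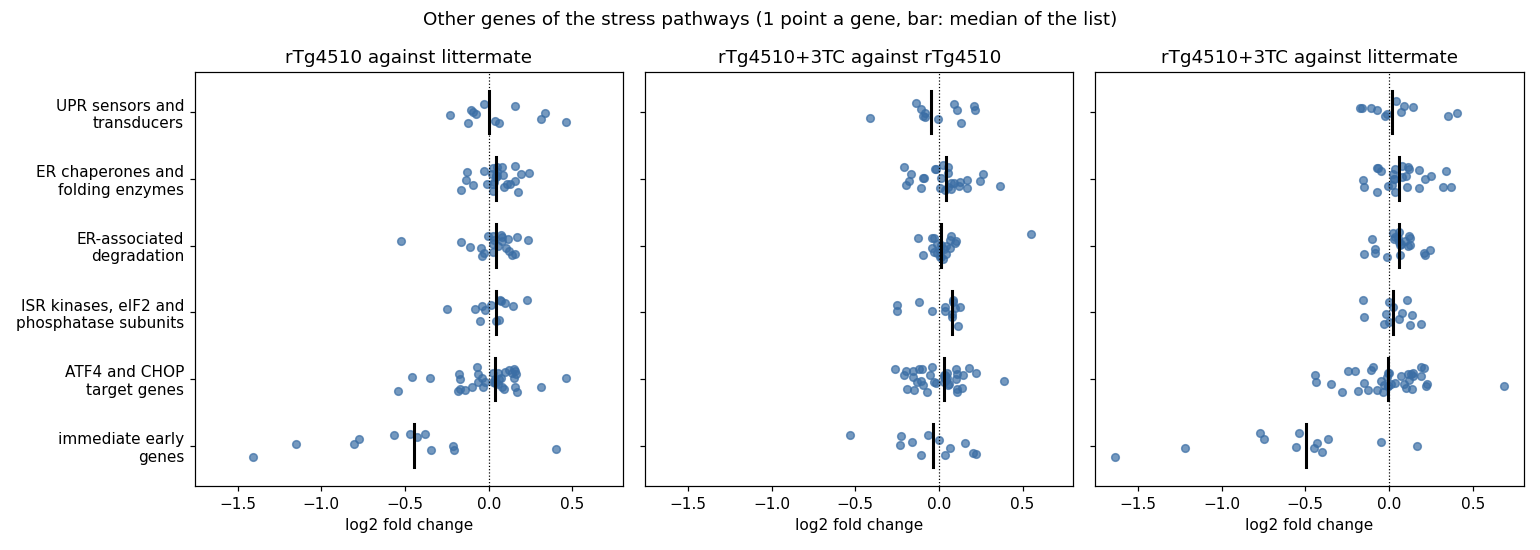
Log2 fold change of every tested gene of the 6 lists outside the 10 UPR genes, 1 panel a comparison, with a bar at the median of each list. List medians lie close to 0 in each panel except for immediate early genes against littermates, at -0.50 for rTg4510+3TC and -0.45 for rTg4510.

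Across the 12 libraries, the chaperone members followed the other chaperone genes. Of the 26 listed chaperones, 15 had r above 0.5 with Hspa5 (median r 0.608), against 6.87% of all genes with a mean of at least 1 CPM, and 14 had r above 0.5 with Sdf2l1 (median r 0.506), against 4.16% of all genes. For Pdia4 there were 11 (median r 0.44, against 6.25% of all genes), and for Xbp1 6 (median r 0.291, against 5.71%). With Ddit3 there were 2 (median r 0.0076, against 13.7%) and with Atf4 2 (median r 0.0282, against 10.3%). These correlations are a description over 12 libraries that share depth and tissue content, and the libraries rTg4510 M1 and rTg4510+3TC M2 are high in many of the genes. Hyou1, a chaperone related to Hsp110, had r = 0.935 with Hspa5, and Pdia6, a disulfide isomerase, had r = 0.913, the highest 2 of 14386 genes. Pdia6 had 97.3, 99.48, 126 and 101.8 CPM in rTg4510+3TC F2, F3, M2 and M3, then 81.33, 86.46, 150.6 and 91.09 CPM in rTg4510 F2, F3, M1 and M3, against 88.19, 92.77, 99.43 and 94.43 CPM in littermates F1, F3, M2 and M3.

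For the ATF4 side, 5 of 36 listed ATF4 and CHOP targets had r above 0.5 with Ddit3, led by the aminoacyl-tRNA synthetase genes Mars (r = 0.785) and Sars (r = 0.747) and the cystine transporter gene Slc7a11 (r = 0.678). That share is near the 13.7% of all genes, and Stc2, of the same list, had r = -0.706. Mars overlaps Ddit3 on the opposite strand, so their reads may not be separate. With Atf4, Sars (r = 0.805), Slc7a3 (r = 0.668), Mars (r = 0.65) and Slc7a11 (r = 0.608) were above 0.5, which is 4 of 36 against 10.3% of all genes, while Stc2 (r = -0.606), Cebpb (r = -0.585) and Vldlr (r = -0.571) were below -0.5. Outside this list, Ppp1r15a, which encodes the GADD34 subunit of the eIF2α phosphatase, stood at r = 0.652 with Atf4 and 0.639 with Ddit3. It was the 1 gene above 0.5 of the 13 integrated stress response genes, against 10.3% and 13.7% of all genes. Their median r was -0.0582 with Atf4 and -0.0612 with Ddit3. Below -0.5 were Eif2ak2 (r = -0.525) and Eif2s1 (r = -0.515) with Atf4, and Eif2s1 (r = -0.671) with Ddit3. With Chac1, 7 of the 36 ATF4 and CHOP targets were above 0.5, against 10.4% of all genes, led by the synthetase genes Aars (r = 0.787) and Sars (r = 0.731). Another 5 of the 36 were below -0.5, and the median r was 0.0242, against 0.00704 over all genes. Immediate early genes had a median r of 0.472 with Xbp1 (6 of 12 above 0.5, against 5.71% of all genes). With Ddit3 it was 0.443 (6 of 12 above 0.5, against 13.7% of all genes). For each, 1 gene of the list was below -0.5, and Jun had r = -0.83 with Ddit3.

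By likeness of pattern over the 12 libraries, the 2 nearest genes were Zfp2 (r = 0.938) and Dync1li2 (r = 0.924) for Ddit3, and Fsd1 (r = 0.935) and Dgat1 (r = 0.93) for Atf4. For Xbp1 they were Prosc (r = 0.944) and Dnajb1 (r = 0.912), a cytosolic Hsp40 gene. For Herpud1 they were Utrn (r = 0.945) and Rims3 (r = 0.933), and for Chac1 Zdhhc17 (r = 0.931) and Lrrc3 (r = 0.929). For Pdia4 they were Sec11a (r = 0.88), which encodes a catalytic subunit of the signal peptidase of the ER, and Serpinh1 (r = 0.878), the collagen chaperone of the ER. For Sdf2l1 they were Gm1653 (r = 0.902) and Gemin2 (r = 0.878), for Atf3 Zfp488 (r = 0.91) and Nts (r = 0.907), and for Trib3 Krit1 (r = 0.855) and Egfl6 (r = 0.843). The best of 14386 genes over 12 libraries is high for any gene, so these names describe the libraries and carry no test.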

How the data were processed

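Per the labels' protocols, RNA was purified with Trizol and columns, and polyA libraries were built with TruSeq reagents from Illumina. The authors deposited whole-number read counts for each gene symbol in 1 table with a column for each of the 12 libraries. STAR, DESeq2 and the build mm10 are named in the submitters' processing notes, without versions or roles. The sources used here give no annotation, filter or strand setting for the counting, so overlapping genes on opposite strands may share reads.

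Of 24411 entries, 27 that carry dates in place of symbols (0.285% to 0.363% of counts) were left out. Library totals include them. Counts were scaled by TMM and filtered with filterByExpr (minimum count 10, minimum total 15). The 12 libraries were fitted by group in edgeR 4.0.16 (R 4.3.3) with the quasi-likelihood test, Benjamini-Hochberg adjustment over 16618 genes and a threshold of 0.05. Log2 CPM used a prior count of 2. The labels give no batch. Replicates were never alike within sampling noise (chi-square per gene of at least 17.4). Counts were also simulated for rTg4510 against littermates (16618 genes, 200 changed). The fit recovered 62% of changes of 1 log2 unit and 93% of 2, with 8 false calls. The changed genes had a mean of at least 1 CPM, so these rates do not cover Atf3 and Trib3. Changes under 1 log2 unit were not simulated. The 95% intervals of fold changes carry the spread between libraries, and limits at a count of 0 cover counting error only.

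The 10 genes and all lists were chosen with earlier results of these data known. Named are the 10, the 2 genes of each list with the smallest p in each comparison and the 2 genes nearest to each of the 10, of which the text gives some with values. Others, named for their correlation with a member, were chosen after their values were seen. Alternatives were DESeq2 1.42.0 (size factors, Wald test), limma 3.58.1 voom with and without quality weights, other filters, sex terms, the replicate code as a block, the 8 libraries of a comparison, and libraries left out. Gene positions came from GENCODE on mm10.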

Additional observations from a re-analysis of the deposited data

Results flagged for a closer look

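In a group of 4 libraries, 1 library was set apart when its gap to the nearest other was too large a share of the whole range of the group by Dixon's 95% criterion. Of 30 combinations of gene and group examined, 3 met this, and chance meets it in about 1 of 20 groups. Ddit3 stood at 24.32 CPM in littermate M2, against 14.08 to 15.45 CPM in the other littermates. Chac1 stood at 9.147 CPM in rTg4510 F3, against 4.119 to 4.632 CPM in the other rTg4510 libraries. Pdia4 stood at 63.22 CPM in rTg4510 M1, against 37.33 to 41.71 CPM in the other rTg4510 libraries. Each library is one that also stood apart in markers of tissue content or in immediate early genes, and the part of these in the values was not tested.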

How the results depend on the processing

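Of the 10 UPR genes, 0 were called in each comparison under each of the 24 alternatives, 12 of which leave out 1 library, with Trib3 not tested under the filter of 1 CPM in 4 libraries. The smallest adjusted p was 0.42 (Chac1, rTg4510+3TC against littermates, over its alternatives). Some alternatives gave an unadjusted p under 0.05 for Hspa5 between rTg4510+3TC and rTg4510. The same held for Atf4 and Chac1 between rTg4510+3TC and littermates. Of 30 log2 differences, 9 kept their sign throughout. In what follows A is rTg4510 against littermates, B rTg4510+3TC against rTg4510 and C rTg4510+3TC against littermates.

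Genes called over the whole table numbered 5 in A, 0 in B and 8 in C. The DESeq2 Wald test called 23 in A, 1 in B and 97 in C. Quality weights gave 15 in A and 38 in C. Leaving out the 3 libraries highest in Ttr gave 0 in A and in C, with fewer libraries in the fit. Leaving out littermate M2 together with rTg4510+3TC F2 and rTg4510 F3 gave 36 in A and 71 in C. Here rTg4510+3TC F2 was high in thalamic markers (score 2.18) and rTg4510 F3 in striatal markers (1.34). Littermate M2 was high in neither (-0.297 and -0.23) nor in choroid plexus markers (-1.39). Littermate F1 (thalamic 1.07, striatal 0.698) and rTg4510 M1 (striatal 0.729) stayed in that fit. Leaving out 1 library gave 4 to 9 in A and 6 to 16 in C, with 9 and 14 without rTg4510 F3 and 8 and 16 without rTg4510+3TC F2. The causes were not tested. Correlated pairs numbered 4, against 1 without the 2 farthest libraries.

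Same-coded libraries deviated with correlations of -0.246 to 0.0504, which show no pairing by code. Tissue content also differed between libraries, so these values cannot settle whether the codes pair libraries. With the replicate block 0 genes were called in A and in C, and the log2 differences that turned sign were Hspa5 -0.137, Trib3 0.687 and Herpud1 0.00152 in A, and Atf4 -0.0725, Trib3 -0.178 and Sdf2l1 0.14 in B.

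Other values that turned sign, none of them called, were as follows. With limma-voom they were Sdf2l1 0.0574 in A, Chac1 0.0513 and Sdf2l1 0.00413 in B, and Ddit3 0.0211, Trib3 -0.0748 and Sdf2l1 0.0616 in C. With quality weights they were Hspa5 -0.0339, Atf3 0.161 and Sdf2l1 0.0256 in A, Chac1 0.179 and Sdf2l1 0.138 in B, and Ddit3 0.0849, Xbp1 0.0432, Trib3 -0.458 and Sdf2l1 0.163 in C. With labelled sex as a term Chac1 was 0.00559 in B. With sex exchanged in littermates F3 and M3, Chac1 was 0.00105 and Sdf2l1 0.00776 in B, and Sdf2l1 0.00336 in C. Without the 3 libraries highest in Ttr they were Hspa5 -0.184, Ddit3 -0.0389 and Xbp1 -0.199 in A, Sdf2l1 0.255 and Atf4 -0.0178 in B, and Atf4 -0.0151 and Trib3 -0.104 in C. Without littermate M2, rTg4510+3TC F2 and rTg4510 F3 together, Atf3 was 0.453 and Sdf2l1 0.113 in A. In the same setting Chac1 was 0.206 in B, and Ddit3 was 0.153, Xbp1 0.094 and Sdf2l1 0.0261 in C.

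Leaving out 1 library gave ranges across 0. In A these were -0.204 to 0.179 for Hspa5, -0.042 to 0.319 for Ddit3, -0.0434 to 0.217 for Xbp1, -0.554 to 0.348 for Atf3, -0.76 to 0.0018 for Trib3, -0.194 to 0.00145 for Herpud1 and -0.304 to 0.135 for Sdf2l1. In B they were -0.00613 to 0.414 for Hspa5, -0.193 to 0.0245 for Ddit3, -0.0209 to 0.0831 for Atf4, -0.143 to 0.341 for Chac1, -0.137 to 0.0755 for Herpud1, -0.187 to 0.252 for Sdf2l1 and -0.0463 to 0.317 for Pdia4. In C they were -0.09 to 0.21 for Ddit3, -0.208 to 0.087 for Xbp1, -0.282 to 0.522 for Trib3, -0.213 to 0.108 for Sdf2l1 and -0.137 to 0.111 for Pdia4. Atf3 and Trib3 have few counts and also spread widely within groups, and which of these sets their wide intervals was not tested.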
